A study of Mus musculus with 108 samples.

Results

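Per1, Per2, Per3, Cry1, Cry2 and Ciart are the repressor genes of the circadian clock, and they are described here across the day in mouse liver. The members were chosen by gene symbol, and they are 6 of 25124 symbols in the deposited tables. Where a symbol had several transcripts, the transcript with the highest mean was used. RNA from livers of male mice was sequenced in 108 libraries, in 6 sets of 18, taken at 6 points of the day with 3 replicates each. Zeitgeber time (ZT) counts hours from lights on, and the points were ZT2, ZT6, ZT10, ZT14, ZT18 and ZT22. The study asks how strain and diet act on daily rhythms of the liver. The wild-type sets were C57BL/6J (B6) and 129S1/SvImJ (129) mice, fed normal chow or D12492i, a diet high in fat and sucrose (HFD). The other 2 sets were on that same diet. In the set labelled Errg-Cre the strain was 129. The set labelled Esrrg LKO is titled as B6 with diet-induced obesity, while its strain label reads B6S1/SvImJ. The series' design text speaks of a knockout of Esrrg in hepatocytes. Esrrg encodes the estrogen-related receptor gamma, a nuclear receptor. The Cre driver, the age of the mice and pooling of animals are not given in the sources used here, and diet-fed control mice of the knockout were not used here.

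In the clock of mammals the activators BMAL1 (gene Arntl) and CLOCK bind E-box sequences and switch on the Per and Cry genes. PER and CRY proteins accumulate, enter the nucleus together and block BMAL1 and CLOCK, which lowers their own transcription until the proteins are degraded. PER1 and PER2 are the scaffolds of the repressor complex, PER3 is a less essential relative, CRY1 and CRY2 bind the activators directly, and CIART (also called CHRONO) is a further repressor of BMAL1 and CLOCK. D-box elements, bound by DBP, TEF and HLF, add to the daytime drive on Per genes. In liver the clock times metabolism to feeding and fasting, and Per genes there also respond to systemic signals such as glucocorticoids.

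The sequence just upstream of the start sites is shown for 5 members because it carries the clock elements named above, and because the timing of these genes is the subject of the results that follow. The sequences are from RefSeq on build GRCm38.p6 (mm10), 5′ to 3′ on the strand of the gene. Those of Ciart, Cry1 and Per3 end at the base before the start site. Capitals mark every match to the E-box CACGTG, to CACGTT (printed as AACGTG where it lies on the opposite strand) and to the D-box TTATGTAA or TTACGTAA, searched on both strands. Each window searched held 250 bases before the start site and 50 bases from it on. No window for Per2 was matched. For Ciart (chr3:95882229-95882478, minus strand), Cry1 (chr10:85185055-85185304, minus strand) and Per3 (chr4:151044666-151044915, minus strand) the upstream 250 bases are given whole. For Per1 (chr11:69098756-69098815, plus strand) and Cry2 (chr2:92434203-92434262, minus strand) 60 bases around the match are given.
Ciart: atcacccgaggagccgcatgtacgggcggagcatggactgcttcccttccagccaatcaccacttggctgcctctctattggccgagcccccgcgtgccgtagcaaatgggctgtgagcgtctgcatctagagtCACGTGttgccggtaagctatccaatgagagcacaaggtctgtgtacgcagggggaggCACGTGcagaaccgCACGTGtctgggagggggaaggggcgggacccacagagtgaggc
Cry1: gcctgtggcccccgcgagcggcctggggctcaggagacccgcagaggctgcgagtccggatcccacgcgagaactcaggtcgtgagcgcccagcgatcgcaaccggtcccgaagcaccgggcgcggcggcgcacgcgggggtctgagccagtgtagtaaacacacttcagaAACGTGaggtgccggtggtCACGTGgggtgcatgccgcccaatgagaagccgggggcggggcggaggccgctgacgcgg
Per3: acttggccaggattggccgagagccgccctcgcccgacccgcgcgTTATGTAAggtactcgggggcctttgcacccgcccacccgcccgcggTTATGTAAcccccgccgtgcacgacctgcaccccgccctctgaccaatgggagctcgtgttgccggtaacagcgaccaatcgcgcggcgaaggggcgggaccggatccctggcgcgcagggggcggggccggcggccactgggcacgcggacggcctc
Per1: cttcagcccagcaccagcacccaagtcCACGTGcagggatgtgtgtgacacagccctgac
Cry2: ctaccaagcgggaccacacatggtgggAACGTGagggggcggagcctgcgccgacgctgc

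The Ciart window held 3 E-boxes, which begin at positions -116, -58 and -44 from the start site. Of 32851 windows of this length in the mouse genome 7.15% held the E-box, and 29 (0.0883%) held 3 or more. The Per3 window held 2 D-boxes, at -205 and -158, and no E-box. The D-box was in 1.06% of all windows and occurred at least 2 times in 8 of them (0.0244%). Cry1 had an E-box at -60 and CACGTT at -79, and Per1 had an E-box at -166, in the window of 1 of its 2 start sites. The Per1 transcript used for the wild-type sets begins at the other start site, whose window held no match. In Errg-Cre and Esrrg LKO the transcript used begins at the start site with the E-box. Cry2 had CACGTT at -166, a match that 4.68% of windows held. Neither the ROR element (TAGGTCA or TGGGTCA, in 6.45% of windows) nor the cAMP element TGACGTCA (1.79%) was found in the windows of the members. A match describes letters in a window and not a bound site.

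The values are read numbers per transcript made equal in distribution across the libraries of each table (quantile-normalised signal), and tests used log2(signal + 1). Depth is unknown, and the wild-type, Errg-Cre and Esrrg LKO tables were normalised separately, so levels were tested only within a table. All 6 members passed the filter of a mean signal of 10 in every table. The labels do not state that numbered replicates came from different mice, and p-values therefore cover only the spread among libraries, which may be technical. Esrrg ran from 7.64 to 39.4 (median 16.4) in the libraries labelled Esrrg LKO, from 8.23 to 62.0 (median 25.9) in Errg-Cre, and from 0 to 59.4 over the wild-type sets. The knockout libraries therefore overlapped the wild-type libraries in Esrrg, and this signal does not check their labels. Of 8 hepatocyte markers 7 were in the tables, each with a mean above 10 in every set. Trim12a, which separated the strains, was between 17.7 and 65.1 in every B6 and Esrrg LKO library and at most 1.93 in every 129 and Errg-Cre library. In 3 wild-type libraries an unusual share of the tested genes was under a signal of 1: B6 chow ZT14 replicate 3 with 15.1%, 129 chow ZT22 replicate 3 with 6.07% and B6 HFD ZT6 replicate 1 with 3.05%, against at most 1.03% in the other 105. In B6 HFD ZT22 replicate 3 the neutrophil markers summed to 14795, against at most 13.6 in the rest of that set, and Kupffer markers summed to 5346 against at most 3186. In Esrrg LKO ZT14 replicate 1 Kupffer markers summed to 16215, against at most 4541 in the rest of the set.

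Per2, Per3 and Cry1 were rhythmic in all 6 sets, Ciart in 5, Per1 in 4 and Cry2 in 2. A 24 h cosine was fitted to each set and tested with limma's moderated F test, adjusted over all genes. Of the 6 members 4 passed in B6 chow, where 6.15% of all genes tested did. In B6 HFD 3 of 6 passed against 4.08% of all genes, in 129 chow 5 against 47.8%, and in 129 HFD 5 against 7.05%. All 6 passed both in Errg-Cre (17.8% of all genes) and in Esrrg LKO (6.09%). In 129 chow nearly every 2nd gene passed, so there the members' count says little about the members.

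**Figure D1:**
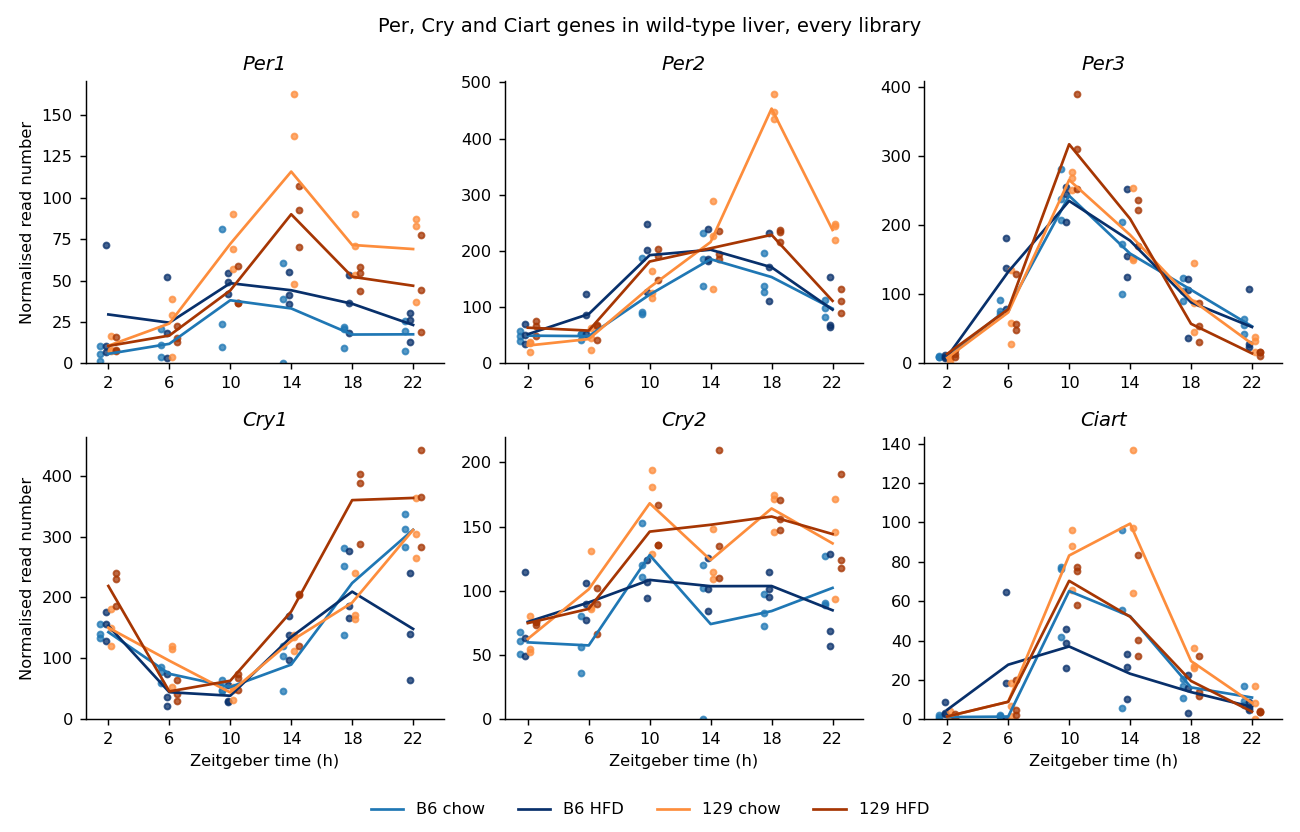
Signal of the 6 clock repressor genes in every wild-type library against zeitgeber time in hours, with points for libraries and lines through the means of the 3 replicates. Per3 and Ciart are high at ZT10 and ZT14 and near their lowest at ZT2. The mean of Per2 is highest at ZT14 in the B6 sets and at ZT18 in the 129 sets. The mean of Cry1 is highest at ZT18 or ZT22 in each set.

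Per3, the relative of PER1 and PER2 with 2 D-boxes upstream, had the deepest rhythm of the Per genes. At ZT2 B6 chow livers had a signal of 9.81, 10.6 and 9.64, and it was 11.5, 9.27 and 8.47 in B6 HFD, 3.84, 7.81 and 12.5 in 129 chow and 18.8, 9.09 and 13.5 in 129 HFD. At ZT10 B6 chow livers had 239, 282 and 208, against 205, 246 and 255 in B6 HFD, 251, 277 and 269 in 129 chow and 252, 389.7 and 310.3 in 129 HFD. No ZT10 library overlapped any ZT2 library in any of the 4 sets. The fitted ratio of peak to trough was 11.6-fold for B6 and 22.8-fold for 129 on chow, and 13.4-fold and 27.3-fold on HFD, on the scale of log2(signal + 1), which understates changes of low values. The fitted peak was at ZT 12.9 ± 0.55 (SE) for B6 and 12.6 ± 0.43 for 129 on chow, and at ZT 12.1 ± 0.52 and 11.6 ± 0.41 on HFD, with adjusted p from 6.87e-06 down to 1.27e-09 (limma).

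Per2, a scaffold of the repressor complex, peaked later than Per3. In B6 chow its signal at ZT2 was 40.6, 49.1 and 58.1, and at ZT14 it was 138, 186 and 232. In 129 chow it was 38.9, 35.7 and 20.5 at ZT2 and 479, 446 and 434 at ZT18, the highest Per2 values of the wild-type table. The fitted peak on chow was at ZT 15.5 ± 0.59 for B6 and 16.8 ± 0.33 for 129, and on HFD at 13.9 ± 0.59 and 15.3 ± 0.55. The amplitude, which is the log2 distance from the fitted mean to the peak, was 1.02 ± 0.16 in B6 chow, 1.01 ± 0.16 in B6 HFD and 1.08 ± 0.16 in 129 HFD, against 1.83 ± 0.16 in 129 chow. Peak and trough thus differed 4.10-fold, 4.03-fold, 4.45-fold and 12.6-fold, and adjusted p was at most 4.43e-05 in each set (limma).

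Per1, the relative of Per2 that is known for fast induction by outside signals, was low and variable in these livers. Its signal in B6 chow was 1.26, 10.6 and 5.43 at ZT2 and 39.0, 60.4 and 0 at ZT14, the 0 being in the library with 15.1% of genes under 1. In 129 chow it was 8.02, 16.6 and 7.21 at ZT2 and 47.6, 137 and 162 at ZT14. In 129 HFD it was 16.1, 8.23 and 7.20 at ZT2 and 107, 92.7 and 70.3 at ZT14, so in both 129 sets every ZT14 library lay above every ZT2 library. Its rhythm passed in 129 chow (peak ZT 15.4 ± 0.90, 8.36-fold, adjusted p = 0.00173, limma) and in 129 HFD (ZT 15.2 ± 1.0, 6.67-fold, adjusted p = 0.026, limma). The call in 129 HFD held in 11 of 16 processing settings and was lost on leaving out some single libraries (adjusted p up to 0.0769, limma). Without the 3 libraries rich in low values it also passed in B6 chow, with an amplitude of 1.26 and adjusted p = 0.0218 in place of 0.67 ± 0.36 and 0.458 (limma). In B6 HFD it did not pass (adjusted p = 0.479), and 1 ZT2 library there, with 71.3 against 10.6 and 6.58, held the highest Per1 value of that set.

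Cry1, which binds the activators and is the late member of the group, was higher at ZT22 than at ZT10. In B6 HFD its mean was highest at ZT18 (209, against 148 at ZT22). At ZT10 the chow livers had 65.2, 46.3 and 47.2 (B6) and 32.0, 47.2 and 52.5 (129), and the HFD livers 28.5, 30.4 and 56.6 (B6) and 67.2, 48.6 and 73.5 (129). At ZT22 the chow livers had 283, 338 and 312 (B6) and 364, 304 and 264 (129), and the HFD livers 239.9, 139.7 and 65.1 (B6) and 283, 364 and 443 (129). The ZT22 libraries lay above the ZT10 libraries in each set, although in B6 HFD the lowest of them, 65.1 in the library with high neutrophil markers, exceeded the ZT10 maximum of 56.6 by little. The peak on chow was at ZT 21.3 ± 0.52 (B6) and 21.2 ± 0.56 (129), and on HFD at 19.9 ± 0.54 and 20.1 ± 0.41. Peak and trough differed 5.67-fold and 5.09-fold on chow and 5.28-fold and 9.06-fold on HFD, with adjusted p of at most 9.55e-06 (limma).

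Cry2, the paralog of Cry1, changed least over the day. Its amplitude on chow was 0.30 ± 0.29 (B6, adjusted p = 0.778) and 0.51 ± 0.29 (129, adjusted p = 0.284), and on HFD 0.28 (adjusted p = 0.946) and 0.53 ± 0.29 (adjusted p = 0.607, limma). In 129 chow it read 80.3, 54.9 and 52.3 at ZT2 and 194, 181 and 129 at ZT10. In 129 HFD it read 75.4, 75.9 and 73.3 at ZT2 and 136, 167 and 136 at ZT10. Those groups did not overlap. In B6 chow ZT14 replicate 3, the library with 15.1% of genes under 1, Cry2 was at 0.073 while the other 2 libraries had 120.2 and 102. Without the 3 libraries rich in low values the rhythm of Cry2 passed in 129 chow (amplitude 0.55, peak ZT 14.25, adjusted p = 0.0017) and in 129 HFD (0.53, ZT 15.8, adjusted p = 0.00942), but not in B6 chow (0.47, adjusted p = 0.0669, all limma). These libraries were chosen for this setting with earlier results of the data known.

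In each wild-type set the amplitudes of Per3 and Ciart were above those of 99.7% of the genes tested. Ciart, the repressor with 3 upstream E-boxes, had the largest amplitude of the 6 genes in 3 of the 4 wild-type sets. At ZT2 its signal was 0.943, 2.23 and 0.030 in B6 chow and 2.85, 0.714 and 0.612 in 129 HFD, and at ZT10 it was 41.8, 76.4 and 77.2 in B6 chow and 75.2, 58.2 and 77.6 in 129 HFD. In 129 chow it was 0, 0 and 3.996 at ZT2 and 65.4, 88.1 and 96.1 at ZT10. The ZT10 and ZT2 libraries were far apart in each of these sets. The peak was at ZT 14.25 ± 0.65 in B6 chow, 13.3 ± 0.50 in 129 chow and 12.9 ± 0.60 in 129 HFD, with amplitudes of 2.304 ± 0.39, 2.98 ± 0.39 and 2.47 ± 0.39 and adjusted p of at most 0.000118 (limma). In B6 HFD the amplitude was 1.29 ± 0.39 and adjusted p = 0.108. There the ZT6 libraries read 0.003, 64.9 and 18.19, the first being the library with 3.05% of genes under 1. Without the 3 libraries rich in low values Ciart passed in B6 HFD as well (amplitude 1.38, peak ZT 10.6 ± 0.93, adjusted p = 0.0140, limma).

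**Figure D2:**
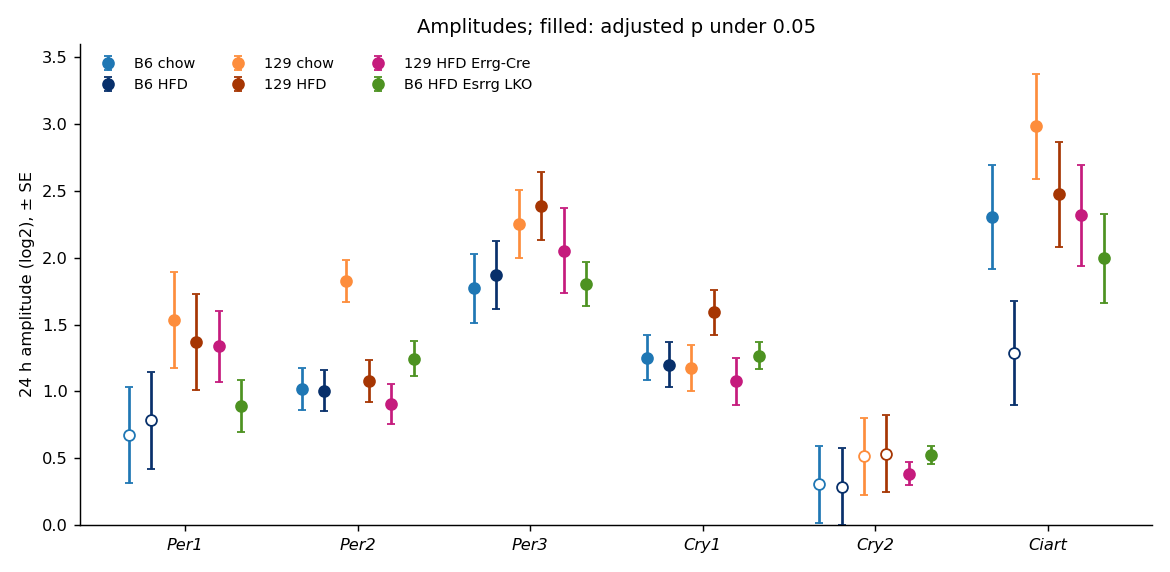
Fitted 24 h amplitude (log2, distance from the mean to the peak, with SE) of each gene in each of the 6 sets, where filled points passed at an adjusted p of 0.05. Ciart and Per3 have the largest amplitudes, Cry2 the smallest, and Per2 in 129 chow (1.83) stands above Per2 in the other 3 wild-type sets (1.01 to 1.08).

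The order of Per3, Per2 and Cry1 was the same in the 6 sets. Per3 came before Per2 in each set, with a gap of -2.65 h (B6) and -4.25 h (129) on chow, -1.83 h and -3.70 h on HFD, -1.09 h in Errg-Cre and -1.87 h in Esrrg LKO, and with 95% intervals that left out 0 each time. Cry1 came after both. On chow it followed Per3 by 8.45 h (95% interval 6.81 to 10.09) in B6 and 8.61 h (7.33 to 9.88) in 129, on HFD by 7.86 h (6.07 to 9.64) and 8.43 h (7.63 to 9.23), 6.95 h (5.05 to 8.85) in Errg-Cre and 7.85 h (6.81 to 8.88) in Esrrg LKO. The intervals of the 6 sets overlap. Per2 and Cry1 were 5.80 and 4.36 h apart on chow, 6.03 and 4.73 h on HFD, and 5.86 and 5.98 h in those other 2 sets. Ciart and Per3 are neighbours whose peaks could not be separated in B6 chow (Ciart later by 1.36 h, interval -0.25 to 2.98), while in 129 HFD Ciart was later by 1.24 h (0.62 to 1.86). These gaps were computed within libraries, so that both genes of a pair share their samples.

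**Figure D3:**
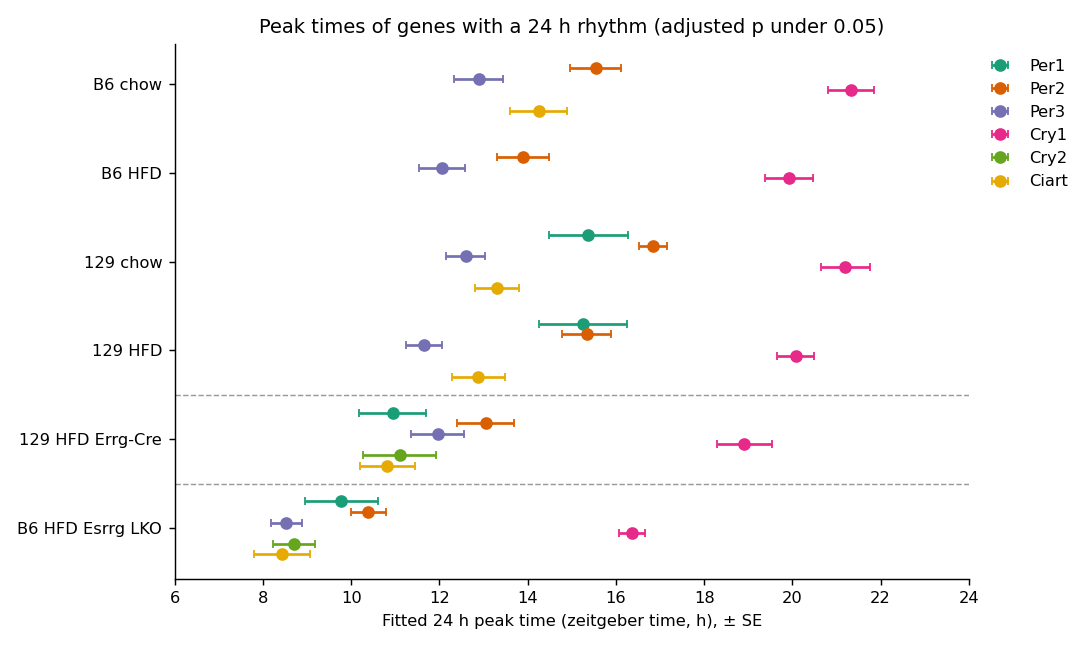
Fitted peak (zeitgeber time in hours, with SE) of each clock repressor gene whose rhythm passed at an adjusted p of 0.05, by set, with dashed lines between tables that were normalised separately. Cry1 is the latest gene in every set, Per3 precedes Per2, and in Esrrg LKO each gene with a wild-type rhythm lies earlier than in the wild-type sets.

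In the libraries labelled Esrrg LKO Per2, Per3 and Cry1 peaked earlier than in B6 HFD, the wild-type set with the nearest labels, where the other 3 genes had no called rhythm. Per3 peaked at ZT 8.5 ± 0.35, Per2 at 10.4 ± 0.40, Cry1 at 16.4 ± 0.30, Ciart at 8.4 ± 0.64, Per1 at 9.8 ± 0.84 and Cry2 at 8.7 ± 0.47. Set beside B6 HFD, the peak was at -3.54 h for Per3, -3.50 h for Per2, -3.55 h for Cry1 and, with the uncalled fits of B6 HFD, -3.53 h for Ciart, -4.15 h for Per1 and -4.38 h for Cry2. All 6 thus sat earlier, by 3.50 to 4.38 h. The sets are in different tables and the difference was not tested, and genotype and experiment cannot be told apart. Leaving out any library of the set moved the peak of Per2 within ZT 10.08 to 10.6, of Per3 within 8.20 to 8.72 and of Cry1 within 16.2 to 16.6, and in B6 HFD within 13.5 to 14.16, 11.8 to 12.4 and 19.5 to 20.3.

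The single values show the same timing. Per3 in Esrrg LKO was 35.1, 124 and 129.8 at ZT2, where B6 HFD had 11.5, 9.27 and 8.47. It was 304, 242 and 251 at ZT6 and had dropped to 39.3, 41.0 and 37.3 at ZT18, where B6 HFD had 123, 106 and 36.8. Cry1 was 51.8, 52.9 and 47.9 at ZT2, where B6 HFD had 128, 157 and 175, and was highest at ZT18 with 189, 289 and 226. Per2 was 258, 202 and 212 at ZT6 and 369.9, 296 and 348 at ZT10, and it had dropped to 40.0, 55.7 and 75.8 at ZT22. All 6 rhythms passed in this set, with amplitudes of 1.80 ± 0.17 (Per3), 1.24 ± 0.13 (Per2), 1.27 ± 0.10 (Cry1), 1.996 ± 0.33 (Ciart), 0.89 ± 0.20 (Per1) and 0.52 ± 0.06 (Cry2). Adjusted p was at most 0.00242 except for Per1, at 0.0202 (limma), whose call was lost on leaving out any of 3 libraries (adjusted p from 0.0502 to 0.0551). Cry2, not called in any wild-type set, fell here from 242, 217 and 171 at ZT10 to 97.6, 95.4 and 101 at ZT22 (adjusted p = 0.000114, limma). The difference of Cry2 between the tables was not tested.

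In the set labelled Errg-Cre all 6 rhythms passed too, at peaks of ZT 10.9 ± 0.75 for Per1, 13.05 ± 0.64 for Per2, 11.96 ± 0.59 for Per3, 18.9 ± 0.63 for Cry1, 11.1 ± 0.83 for Cry2 and 10.8 ± 0.63 for Ciart, with adjusted p from 0.00189 to 0.0133 (limma). Beside 129 HFD, the wild-type set of the same strain and diet, the peaks were at -4.31 h (Per1), -2.29 h (Per2), 0.31 h (Per3), -1.16 h (Cry1) and -2.07 h (Ciart), and at -4.71 h for Cry2, which had no called rhythm in 129 HFD. They ranged from 4.71 h earlier to 0.31 h later, and were not tested. These sets were normalised separately, and genotype and experiment cannot be told apart here either. In this set ZT6 replicate 3 stood apart, with Per3 at 21.8 against 302 and 347, Ciart at 1.59 against 62.2 and 109.8 and Cry1 at 139 against 51.6 and 60.0. At ZT10 replicate 3 also had a high Cry1 (366 against 73.1 and 116) and a low Per3 (112 against 387 and 338). Every rhythm of the 6 passed after leaving out any library of the set.

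**Figure D4:**
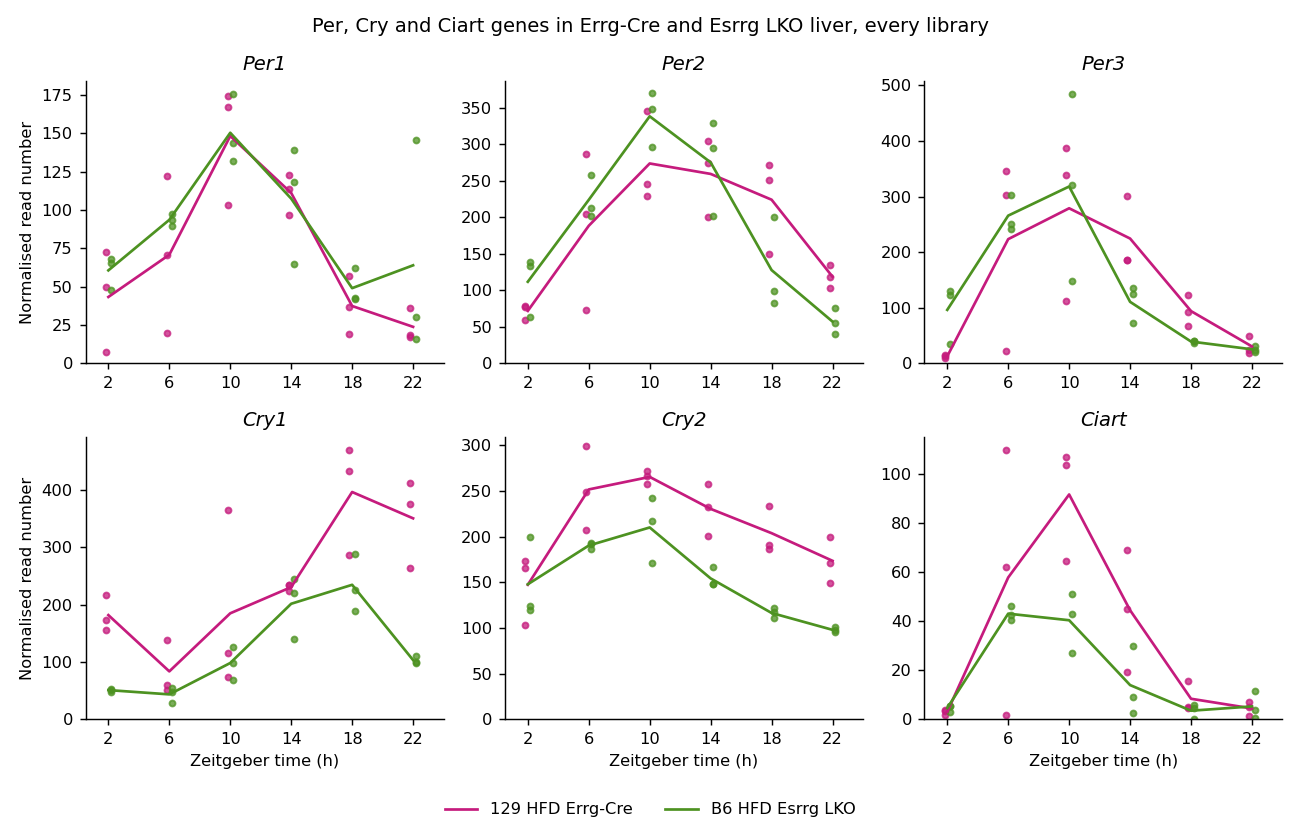
Signal of the 6 genes in every library labelled Errg-Cre or Esrrg LKO against zeitgeber time in hours, with points for libraries and lines through the means of the 3 replicates. In Esrrg LKO Per3 is at 242 to 304 at ZT6 and 37.3 to 41.0 at ZT18, and in Errg-Cre the low Per3 point at ZT6 (21.8) is replicate 3.

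In the reported fit the Per2 rhythm of 129 mice differed between the diets, but several other settings lost this call. On chow the Per2 signal was 479, 446 and 434 at ZT18 and 244, 248 and 220.0 at ZT22. On HFD it was 237, 215 and 234 at ZT18 and 133, 89.6 and 111 at ZT22, so that the diets did not overlap at either time. At ZT2 the order was reversed, with 38.9, 35.7 and 20.5 on chow and 74.7, 49.4 and 66.3 on HFD. The diets overlapped at ZT6, ZT10 and ZT14. How often other genes show no overlap was not counted. The amplitude fell by 0.75 ± 0.22 on the log2 scale (95% interval -1.19 to -0.31, adjusted p = 0.0427, limma), which left a peak to trough ratio of 4.45-fold in place of 12.6-fold. The test of the whole rhythm also passed (adjusted p = 0.0436, limma). It called 1 of the 6 members where 1.26% of all genes passed, and the amplitude test called 1 where 2.88% of the genes rhythmic on both diets did, over which the median change was -0.08. At single times Per2 passed at ZT22 (-1.10, adjusted p = 0.0314) and missed at ZT18 (-0.98, adjusted p = 0.0633) and ZT2 (1.01, adjusted p = 0.0623, limma). Of 36 tests of members at single times 1 passed, against 3.02% of all genes and times. The calls for the Per2 rhythm were lost once the relation of each library to GC content and transcript length was removed (amplitude -0.52, adjusted p = 0.251, and rhythm adjusted p = 0.099). The slope of signal on GC content (log2 per 10 points) in 129 chow was -0.10, -0.62 and -0.88 at ZT2 and 0.52, 0.73 and 0.59 at ZT18. On HFD it was -0.01, 0.16 and 0.03 at ZT2 and 0.18, 0.30 and 0.05 at ZT18. Both calls were also lost with the level of Mir6236, an abundant RNA, as a covariate, on the linear scale and with no filter. The cause was not tested. The rhythm call was also lost on leaving out any of 24 of the 72 libraries (adjusted p up to 0.0709), and the amplitude call for 22 (up to 0.114). Without any single replicate number the rhythm call was lost too.

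In B6 mice diet changed no member's rhythm (0 of 6 by limma's adjusted p, against 0.0532% of all genes), and no amplitude difference passed in any gene (0% of 205 rhythmic on both diets). The Per2 amplitudes on the 2 diets were 1.02 and 1.01. At ZT6 Ciart read 0.002, 2.29 and 1.66 on chow and 0.003, 64.9 and 18.19 on HFD, and the difference of 2.39 log2 passed (adjusted p = 0.0363, limma). It was 4.11 without the 3 libraries rich in low values, but 1.09 (adjusted p = 0.412) without B6 HFD ZT6 replicate 2, and the call was also lost without B6 HFD ZT6 replicate 3 (1.98, adjusted p = 0.135) or B6 chow ZT6 replicate 1 (1.87, adjusted p = 0.163) or 3 (2.58, adjusted p = 0.0601). Cry1 at ZT6 was 58.9, 86.5 and 78.1 on chow and 74.9, 37.0 and 21.2 on HFD, a difference of -0.90 (adjusted p = 0.0461, limma) that was -0.47 (adjusted p = 0.364) without B6 HFD ZT6 replicate 3. At ZT22 Cry1 differed by -1.25 (adjusted p = 0.0302, limma). The ZT22 difference rested on the library with high neutrophil markers and was -0.76 without it (adjusted p = 0.568). Cry2 at ZT14 was called at 2.12 (adjusted p = 0.0152), which came from the library with Cry2 at 0.073, and was -0.11 without it (adjusted p = 0.875). Thus 4 of 36 tests passed, against 18.7% of all genes and times, and each of the 4 was lost on leaving out some single library. Of all genes 35.1% passed at ZT6, 30.2% at ZT14 and 4.77% at ZT22.

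**Figure D5:**
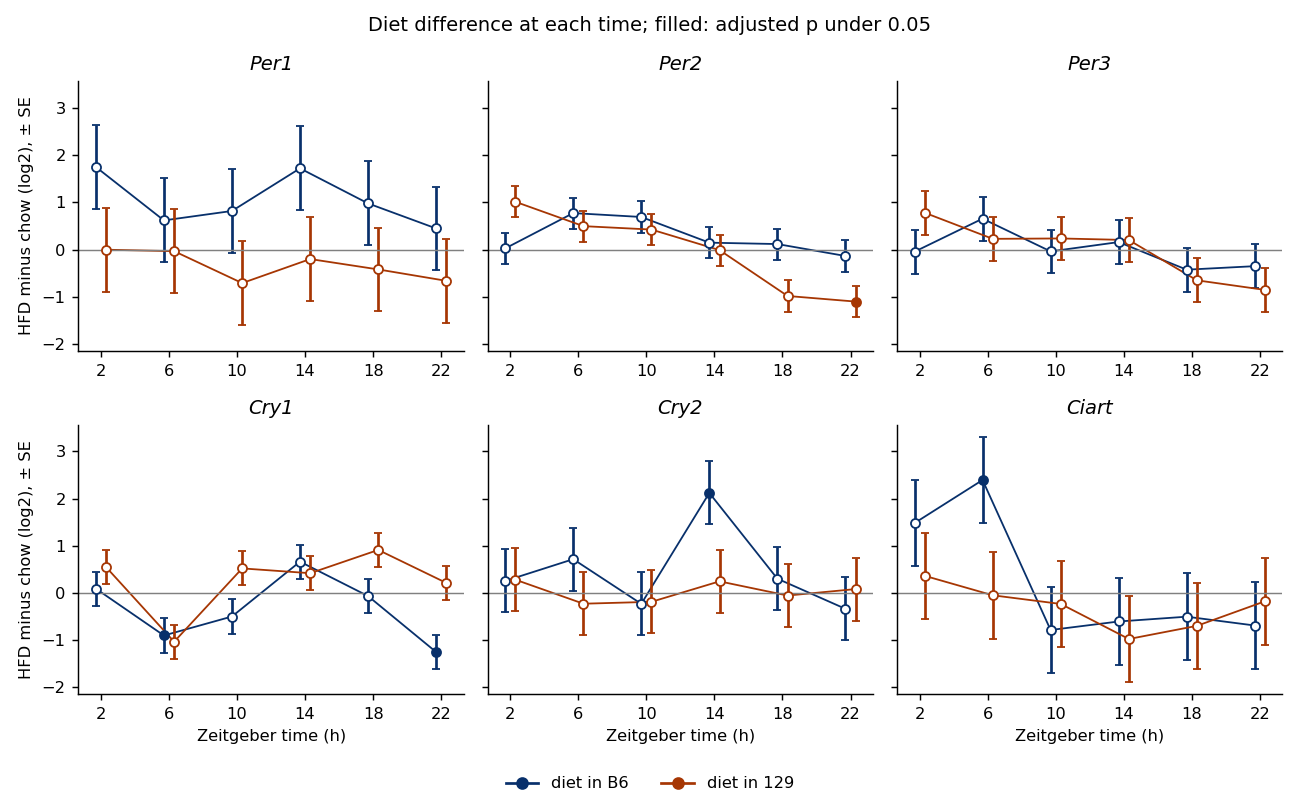
Difference between HFD and chow (log2, with SE) of each gene at each zeitgeber time in hours, for B6 and 129, where filled points passed at an adjusted p of 0.05. In 129 Per2 goes from a positive difference at ZT2 (1.01) to negative ones at ZT18 (-0.98) and ZT22 (-1.10).

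In the reported fit, peaks were earlier on HFD than on chow for each member rhythmic on both diets, but no single difference passed. In B6 the difference was -1.65 ± 0.83 h for Per2 (95% interval -3.31 to 0.02, adjusted p = 0.207), -0.83 ± 0.76 h for Per3 and -1.42 ± 0.75 h for Cry1 (-2.92 to 0.08, adjusted p = 0.23, limma). In 129 it was -1.50 ± 0.64 h for Per2 (-2.78 to -0.22, adjusted p = 0.132), -0.95 ± 0.60 h for Per3, -1.13 ± 0.69 h for Cry1, -0.42 ± 0.79 h for Ciart and -0.12 ± 1.35 h for Per1. Over all genes rhythmic on both diets the median was -0.87 h in B6 and -0.07 h in 129, and 8.29% and 5.46% of them passed. In B6 the members' shifts thus stood near or beyond a median that was itself earlier. Per2, Per3 and Cry1 kept the negative sign in both strains in each of 16 processing settings. In 129 the sign was less stable for the other members. Per1 was earlier in 10 of 16 settings (at most 1.83 h later) and Ciart in 14 (at most 0.64 h later). Ciart in B6, with no called rhythm on HFD, had a difference of -3.64 ± 1.04 h (adjusted p = 0.0128, limma) once the 3 libraries rich in low values were left out, and of -3.67 h (adjusted p = 0.0285) without B6 HFD ZT6 replicate 1 alone.

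Averaged over the day, diet raised Per1 in B6 and changed no member in 129. Per1 on chow was as given above at ZT2 and ZT14 and had 9.82, 80.9 and 23.5 at ZT10 and 22.17, 20.9 and 9.14 at ZT18. On HFD it had 41.9, 48.9 and 54.4 at ZT10 and 53.3, 36.3 and 18.33 at ZT18. The groups overlapped at both times. The set means were 20.6 ± 21.0 (SD, n = 18) on chow and 34.3 ± 19.6 on HFD, and the log2 difference was 1.05 ± 0.36 (higher at 6 of 6 times, adjusted p = 0.0108, limma). It called 1 of 6 members, where 60.2% of all genes passed and 27.5% were higher, so a call is the usual outcome in this comparison. The RNA of Per1 is rich in G and C (59.4%, the 95.8th percentile of the genes tested), and the slope of signal on GC content differed between the B6 diets, with medians of -0.42 and 0.16 log2 per 10 points. With that relation removed the Per1 difference was 0.36 (adjusted p = 0.345), and without the 3 libraries rich in low values it was 0.72 (adjusted p = 0.0400, limma). For the other members the differences in B6 were 0.27 ± 0.13 for Per2 (adjusted p = 0.0799), -0.33 ± 0.15 for Cry1 (0.0518), 0.47 ± 0.27 for Cry2 (0.13), 0.22 for Ciart (0.634) and -0.01 for Per3 (limma), beside a median of -0.06 over all genes. Cry1 was lower past the threshold with the GC relation removed (-0.39, adjusted p = 0.0172) and without the 3 libraries (-0.47, adjusted p = 0.00238), and Per2 was higher without them (0.35, adjusted p = 0.0214). With the level of Mir6236, an abundant RNA, as a covariate no member was called, and Per1 was at -0.031 ± 0.62. That fit called 565 of 11286 genes, against 6791 in the reported fit. Mir6236 ran from 32.8 to 1171 in B6 chow and from 915 to 91012 in B6 HFD. Its level thus nearly separated the diets, and the fit cannot well tell diet from Mir6236. In 129 none of the 6 passed by limma's adjusted p, where 10.9% of all genes were called higher and 7.45% lower, and Per1 differed by -0.34.

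Between the strains on chow, Per2 differed at ZT18 and ZT22. At ZT18 it was 127, 138 and 196 in B6 and 479, 446 and 434 in 129, a log2 difference of 1.58 (adjusted p = 0.00014, limma). At ZT22 it was 82.1, 113 and 97.6 in B6 and 244, 248 and 220.0 in 129, a difference of 1.29 (adjusted p = 0.00329, limma). The strains did not overlap at either time. At ZT2 Per2 was lower in 129, also without overlap (40.6 to 58.1 in B6, 20.5 to 38.9 in 129). The strains overlapped at ZT6, ZT10 and ZT14, and the share of all genes without overlap was not computed. The amplitude was higher in 129 by 0.81 ± 0.22 (95% interval 0.37 to 1.25, adjusted p = 0.0335) and the rhythm test passed (adjusted p = 0.0117, limma), calling 1 of 6 members where 13.1% of all genes passed, and 3.6% in amplitude. After removal of the GC and length relation these were 0.37 (adjusted p = 0.386) and adjusted p = 0.138. The slope of signal on GC content at ZT18 was -0.56, -1.17 and -0.37 in B6 chow, against 0.52, 0.73 and 0.59 in 129 chow. Both calls were also lost with the Mir6236 covariate and without any single replicate number, and the amplitude call on the linear scale. The amplitude call was also lost on leaving out any of 3 single libraries, at adjusted p from 0.0527 to 0.0581. The other 2 calls at single times, Cry2 and Per1 at ZT14 (2.38 and 2.93), rested on the B6 chow library in which both were at or near 0, and were 0.15 and 1.06 (adjusted p = 0.610 for Per1) without it. The fit without that library instead called Cry2 at ZT6 (0.85, adjusted p = 0.039) and ZT18 (0.96, adjusted p = 0.00265) and Per1 at ZT18 (2.04, adjusted p = 0.0154) and ZT22 (1.97, adjusted p = 0.0356), all higher in 129. In the fit of all libraries, 4 of 36 such tests passed, against 17.9% of all genes and times. At the times of these calls more genes passed: 23% of all genes at ZT14, 47.9% at ZT18 and 22.7% at ZT22.

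Averaged over the day on chow, 3 of 6 members were higher in 129, against 53% of all genes called and 25.4% called higher. They were Per1 by 1.67 ± 0.36 log2 (6 of 6 times, adjusted p = 0.000142), Per2 by 0.39 ± 0.13 (4 of 6 times, adjusted p = 0.0128) and Cry2 by 0.84 ± 0.27 (6 of 6 times, adjusted p = 0.0088, limma). Per1 averaged 60.5 ± 43.7 in 129 and 20.6 ± 21.0 in B6 (SD, n = 18), and Cry2 126 ± 43.8 and 84.3 ± 36.5. With the GC and length relation removed Per1 was still called (1.06, adjusted p = 0.0047), Per2 was not (0.07, adjusted p = 0.722) and Cry2 was not (0.46, adjusted p = 0.086), while Per3 was called lower in 129 (-0.46, adjusted p = 0.0407). With the Mir6236 covariate none was called, and Per1 was at 0.94 (adjusted p = 0.241). That fit called 1446 of 11286 genes, against 5976 in the reported fit. Cry2 shares with Per1 a high GC content (55.6%, the 81.9th percentile). The mm10 build is the B6 genome, and whether reads with 129 variants were lost was not tested.

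On HFD Cry1 was the member called between the strains. At ZT2 Cry1 was 128, 157 and 175 in B6 and 230.3, 240.4 and 185 in 129, and at ZT18 it was 166, 276 and 186 in B6 and 403, 389 and 288 in 129. At ZT22 it was 239.9, 139.7 and 65.1 in B6 and 283, 364 and 443 in 129. The strains did not overlap at any of these times, but they overlapped at ZT6, ZT10 and ZT14. The share of all genes without overlap was not computed. The mean over the day was higher in 129 by 0.67 ± 0.15 log2 (6 of 6 times, adjusted p = 0.000234, limma), and the set means were 205 ± 136 and 121 ± 74.9 (SD, n = 18). It was the only member of 6 called, where 32.3% of all genes passed and 19% were higher, and it passed under each of 14 processing settings with values from 0.54 to 0.80. Cry2 averaged 127 ± 42.0 in 129 and 94.6 ± 23.9 in B6. For Cry2 the strains did not overlap at ZT10 (94.6 to 124 in B6, 136 to 167 in 129) and ZT18 (95.1 to 115, 147 to 171). They overlapped at the other times. The Cry2 difference over the day was 0.39 ± 0.27 (adjusted p = 0.293, limma). It passed without B6 chow ZT14 replicate 3 (adjusted p = 0.00378), a library outside this comparison that shares in the estimate of spread, and without the 3 libraries (0.41, adjusted p = 0.00243). At single times Cry1 passed at ZT22 (1.45, adjusted p = 0.00574) and Per3 was lower there (-1.46, adjusted p = 0.0419, limma). Without the B6 library with high neutrophil markers these were 0.96 (adjusted p = 0.198) and -0.78 (adjusted p = 0.624). Of 36 such tests 2 passed, against 6.38% of all genes and times, and no member changed in rhythm by limma's adjusted p (0.0443% of all genes did) or in amplitude (0% of 233 genes). Peaks differed between the strains for no member on either diet, where 18.9% of genes passed on chow and 0.429% on HFD. The largest such difference was that of Per2, later in 129 by 1.30 ± 0.67 h on chow (adjusted p = 0.176) and by 1.45 ± 0.81 h on HFD.

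The diet effect on the mean level differed between the strains for 2 of 6 members, against 34.4% of all genes. For Per1 the diet effect was 1.05 in B6 and -0.34 in 129, a difference of -1.39 ± 0.51 (adjusted p = 0.0307, limma). For Cry1 it was -0.33 in B6 and 0.26 in 129, a difference of 0.59 ± 0.21 (adjusted p = 0.0246, limma). The estimates had opposite signs in the strains, although of the 4 only that of Per1 in B6 passed by itself. With the GC and length relation removed Cry1 was still called (0.57, adjusted p = 0.0362) and Per1 was not (-0.70, adjusted p = 0.286). With the Mir6236 covariate neither was called (Cry1 0.62, adjusted p = 0.740, Per1 -0.12, adjusted p = 0.986). That fit called 14 of 11286 genes, against 3881 in the reported fit, so a lost call there says little about a member. Leaving out B6 HFD ZT2 replicate 1, the library with Per1 at 71.3, took Per1 to -1.23 (adjusted p = 0.051), and leaving out B6 chow ZT10 replicate 1 to -1.28 (adjusted p = 0.0509). For the rhythm no gene of 11286 passed the diet by strain test by limma's adjusted p (0%), and the smallest unadjusted p of a member was 0.170.

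Per kilobase of transcript, which allows a comparison between genes, Cry1 had the highest mean level in each wild-type set (49.7 and 51.2 for B6 and 129 on chow, 40.5 and 68.2 on HFD) and Per1 the lowest (4.46 and 13.1 on chow, 7.41 and 9.38 on HFD). The other 4 genes lay between 13.5 and 32.0. The values of neighbours in this order were within their spread over the day. The annotation places D930015M05Rik on the strand opposite to Cry2, C920021L13Rik opposite to Ciart and Camta1 on the strand of Per3. Their mean signal was 8.48, 4.15 and 13.5 over the wild-type libraries, and whether counting used the strand is not given in the sources used here.

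The genes most like a member over sets and times were found by Pearson's r of log2 means over the 24 wild-type groups. This describes points that share libraries. Set means were not removed, so r also holds differences of level between strains and diets and does not measure the daily pattern alone. Per3 was most like Tef (0.944) and Dbp (0.895), which encode D-box binding factors, and then Ciart (0.865). Ciart was most like Tef (0.917), Gys2 (0.903), the glycogen synthase of liver, and Usp2 (0.895), a ubiquitin protease. Per2 was most like Por (0.912), the electron donor of cytochromes P450, Cdk18 (0.866) and Pdxk (0.858). Cry1 was most like Lonrf3 (0.920), Cdkn1a (0.902), the cell cycle inhibitor p21, and Neu3 (0.901). For Per1 the nearest were Osbpl5 (0.862), Tnks1bp1 (0.855) and Efhd2 (0.850), and for Cry2 Plbd2 (0.877), Eefsec (0.874) and Ctdp1 (0.873). None of these last 6 is a core clock gene. Between members, Per1 went with Per2 (0.786) and Cry2 (0.763), and Per3 ran against Cry1 (-0.549).

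Other genes of the pathway were counted in lists. The activators Arntl, Clock and Npas2 were rhythmic in 3 of 3 cases in each wild-type set, and no contrast changed the rhythm of any of them by limma's adjusted p. In mean level, diet in B6 lowered 1 of the 3, Clock, at -0.54 ± 0.08 (adjusted p = 7.06e-08, limma), and diet in 129 called none. Of the REV-ERB and ROR receptors, which act on Arntl and Cry1, 4 of 5 were tested. In B6 2 rose on HFD and 2 fell, with Nr1d1, which encodes REV-ERB alpha, at 0.97 ± 0.30, and in 129 none passed. They were rhythmic in 3 of 4 cases in both B6 sets and in 4 of 4 in both 129 sets.

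Of the 6 output factors that bind D-boxes or E-boxes, 2 rose on HFD in B6 and 1 fell, with Dbp at 0.999 ± 0.27 and Hlf at -0.51 ± 0.12, and 2 rose in 129. On chow 4 of the 6 were rhythmic in B6 and all 6 in 129, and on HFD 4 and 5. A list of 14 held kinases, phosphatases, ubiquitin ligases and the ubiquitin protease Usp2, which act on PER and CRY proteins. Of these 14, 2 rose in B6 and 6 fell, among them the casein kinase Csnk1e at 0.68 ± 0.27 and Usp2 at -0.68 ± 0.23. In 129 1 of the 14 rose and 2 fell. Of 11 genes known to respond to glucocorticoids 1 rose in B6 and 5 fell, with Mt2 at -1.32 ± 0.58 and Fkbp5, a co-chaperone of the glucocorticoid receptor, at -0.86 ± 0.21, and in 129 2 fell. Their median difference by diet was -0.34 in B6 and -0.16 in 129, beside -0.06 and 0.04 over all genes. On chow 6 of the 11 were rhythmic in B6 and 8 in 129, and on HFD 2 and 4. Of 10 early genes responding to CREB or serum 5 were tested. In B6 1 rose and 2 fell, with Btg2 at 0.56 ± 0.22 and Sik1 at -0.63 ± 0.15. By diet in B6 60.2% of all genes passed in mean level, so the shares of that comparison describe the lists and set none of them apart. By diet in 129 10.9% of all genes were called higher and 7.45% lower. For rhythm, 6.15% of all genes passed in B6 chow and 47.8% in 129 chow, so the higher counts in 129 chow go with a higher share of all genes. On HFD 4.08% passed in B6 and 7.05% in 129.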

How the data were processed

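Each deposited signal value is a quantile-normalised read number per RefSeq transcript, made by the authors with STAR and HOMER on mm10 (per the submitters' processing notes, without versions). Within each of 3 tables every library has the same sorted values and the same total (10837743, 12305608 or 10346206), so depth and counting error are unknown. Samples were grouped by the labels. The column headers of the Esrrg LKO table read ErrgCre, and they were matched to samples as the labels' description of that table gives them. A further 18 columns of the Errg-Cre table, headed ErrgGFP, match no label and were not used.

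Genes with a mean of at least 10 in their table were tested (11286, 11621 and 11945) as log2(signal + 1), so differences are on that scale. Models were fitted in limma 3.58.1 (eBayes with trend, R 4.3.3), Benjamini-Hochberg adjusted over all genes, with a threshold of 0.05. The 72 wild-type libraries shared a fit with cosine and sine terms of 24 h per set, and a second with 24 group means. Peak and amplitude differences have delta-method errors and were adjusted over genes rhythmic in both sets. Procedures were tested on simulated data. Members, lists and alternatives were chosen with earlier results of these data known. Always named were the 6 members, for each the 3 genes with the nearest pattern, and per list at most 2 genes past the threshold with the largest diet effect in B6. Of the genes this rule names, 1 is not reported here. Trim12a, marker sums and single libraries were named after their values were seen. Alternatives were other pseudocounts, filters, scalings and covariates, the longest transcript per symbol, 12 h terms, a replicate block and leaving out libraries.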

Additional observations from a re-analysis of the deposited data

Results flagged for a closer look

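The diet effect on the daily mean differed between the strains for 2 of the 6 genes, by limma's test of the difference itself. For Per1 the effect in 129 minus that in B6 was -1.39 (adjusted p = 0.0307), with lower values on HFD at 6 of 6 times in 129 and higher values at 6 of 6 times in B6. For Cry1 it was 0.59 (adjusted p = 0.0246), with higher values at 5 of 6 times in 129. The residual Per1 signal correlated with the GC slope of the library (r = 0.49 over 72 libraries, as a description), and the correction for it took the Per1 difference to -0.70 (adjusted p = 0.286). With Mir6236 as a covariate neither difference was called (-0.12 for Per1, adjusted p = 0.986, and 0.62 for Cry1, adjusted p = 0.740). In that fit 14 of 11286 genes were called, against 3881 in the reported fit.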

How the results depend on the processing

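The numbers below are counts of the 6 genes (of 36 gene and time pairs for single times) that passed limma's test. The reported counts were 1 each for the rhythm change and the amplitude difference by diet in 129 and by strain on chow, 1, 3, 1 and 2 for the mean level (diet in B6, strain on chow, strain on HFD, diet by strain), 4, 1, 4 and 2 for single times (diet in B6, diet in 129, strain on chow, strain on HFD) and 0 for peak differences.

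With the GC and length trend removed, the rhythm change and the amplitude difference each became 0 by diet in 129 and 0 by strain on chow, the mean level became 1 by diet by strain and 2 by strain on chow (Per1 and Per3), with Cry1 called in place of Per1 by diet in B6, and single times became 1 (diet in B6), 0 (diet in 129) and 2 (strain on chow). Of the 11230 genes then tested 143 (diet in 129) and 668 (strain on chow) passed for the rhythm change. For the mean level 1917 (diet by strain), 4446 (strain on chow) and 5186 (diet in B6) passed. With the 3 libraries rich in low values also left out, a setting added after seeing the data, those rhythm and amplitude counts were 0, the mean level gave 2 (diet in B6), 1 (strain on chow), 2 (strain on HFD) and 1 (diet by strain), peak differences 2 (diet in B6) and 1 (diet in 129), and single times 1 (strain on chow) and 4 (strain on HFD). Of the 11230 genes tested there 5953, 4962, 5030 and 2656 passed for those mean levels, in the same order. For the rhythm change 381 (diet in 129) and 860 (strain on chow) passed. With those libraries left out alone, the mean level gave 3 (diet in B6), 2 (strain on HFD) and 1 (diet by strain), the peak difference by diet in B6 gave 1, and single times 3 (diet in 129) and 4 (strain on HFD). Of all 11286 genes 7211, 4566 and 4509 passed for those mean levels, in the same order. With Mir6236, the level of an abundant RNA, as a covariate, the rhythm and amplitude counts were 0, the mean level 0 (diet in B6, strain on chow, diet by strain) and single times 1 (diet in B6), 0 (diet in 129) and 2 (strain on chow). Of all 11286 genes 565, 1446 and 14 passed there for those mean levels, in the same order. For the rhythm change 11 (diet in 129) and 77 (strain on chow) passed. On the linear scale the rhythm change by diet in 129 and both amplitude differences became 0 and the peak difference 1 by diet in 129 and 1 by strain on chow. Of all 11286 genes 14 passed there for that rhythm change. With no filter the rhythm change and amplitude by diet in 129 and the diet by strain mean became 0, and single times 1 (diet in B6) and 1 (strain on HFD). Of the 25124 genes then tested 31 passed for that rhythm change and 3251 for the diet by strain mean. Median centring gave 2 for the mean by diet in B6, where 6696 of 11286 genes passed. A pseudocount of 0.1 gave 1 for diet by strain, where 3635 of 11286 genes passed. A pseudocount of 10 gave single times of 2 (diet in 129) and 1 (strain on HFD). For amplitudes, peaks and single times, genes passing among all genes were not counted under these settings. The causes were not tested.

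Estimates called in at least 1 of the 2 fits changed sign for Per1 by diet in B6 with the Mir6236 covariate (-0.031), for Cry2 by diet in B6 with GC removed and 3 libraries left out (-0.27), for Cry2 at ZT14 by diet in B6 without replicate 3 (-0.11, up to 3.32 without replicate 2), without the 3 libraries (-0.11) and with both changes (-0.41), and for Cry2 at ZT14 by strain on chow with both (-0.060).

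Leaving out a library or a replicate number in turn gave ranges of 0 to 1 for the rhythm change and the amplitude difference by diet in 129 and by strain on chow and for the peak difference by diet in B6. They were 0 to 3 (diet in B6), 1 to 2 (strain on HFD) and 0 to 2 (diet by strain) for the mean level, 0 to 5, 0 to 3, 3 to 6 and 0 to 3 for single times in the order above, and 3 to 6 for rhythms in Errg-Cre. In the wild-type libraries, deviations of same-numbered replicates had a median r of 0.00496, against -0.0028 for other pairs. It was 0.0393 against -0.013 in Esrrg LKO and -0.0283 against 0.0122 in Errg-Cre. These medians pool pairs from all groups, so they cannot decide whether numbers pair some of the samples. The fit with a replicate block added 1 call, Per1 at ZT18 by strain on chow (2.04, adjusted p = 0.0487, limma). It changed no other (Per1 by diet in B6 1.05, adjusted p = 0.0095, limma). Over the values of single genes in the settings other than single left-out libraries, 3546 kept their sign and side of the threshold, 111 lost and 48 gained a call, 225 changed sign with no call in either fit, and the 6 above changed sign with a call.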
